A study of Mus musculus with 9 samples.

Results

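The transcripts of 10 Wnt pathway genes were measured in mouse glioblastoma cells and in the astrocytes they had been grown with. The genes were a listed set, found by symbol among the 49315 gene rows of the count table: the ligands Wnt5a, Wnt7a and Wnt7b, the receptors Fzd1 and Fzd2, the secreted proteins Sfrp1 and Dkk3, the feedback scaffold Axin2, and the DNA-binding factors Lef1 and Tcf7l2. All 10 had a row. The wider pathway was followed through 107 genes in 10 role lists, the 10 genes among them.

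The study co-cultured GFP-labelled SB28 cells, a C57BL6 mouse glioblastoma line, with primary neonatal astrocytes of the C57BL6 (mito::mKate2) strain, in which mitochondria are marked with mKate2, a red fluorescent protein. After 2 days, astrocytes, SB28 cells without the red signal (mKate2-) and SB28 cells with it (mKate2+, the cells that had taken up astrocyte mitochondria) were sorted from 3 separate co-cultures, giving 3 libraries in each of 3 groups. Apart from a sorting dye, nothing was added beyond the culture medium, and every group came out of a shared culture. The medium that the paper names for these co-cultures held serum, epidermal growth factor and a fibroblast growth factor. SB28 is a single line, and neither SB28 cells nor astrocytes grown alone were analysed here. Library totals ran from 24454561 to 39287841 counts, and levels below are CPM, a gene's count divided by its library's total and scaled to a common total, or CPM per kilobase of exon (CPM per kb) where different genes are compared.

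Wnt proteins are secreted lipid-bearing ligands that bind Frizzled receptors together with co-receptors such as LRP5 and LRP6. In the β-catenin branch, binding disables a cytoplasmic destruction complex built on AXIN and APC, β-catenin accumulates, and it joins TCF and LEF proteins on DNA to switch on targets that include AXIN2, NOTUM and NKD1, which in turn dampen the pathway. Other Wnts, WNT5A among them, act largely without β-catenin, and in the brain WNT7A and WNT7B are known for driving vessel growth and the blood-brain barrier through a receptor complex that needs RECK and ADGRA2.

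The promoters of 3 genes are shown because β-catenin feedback genes lie at both ends of the results: Axin2 and Sp5, a transcription factor gene switched on by β-catenin, were low in SB28 cells, and Lef1 was higher there. Sp5 was chosen after its values were seen. Each is 300 bases from RefSeq on GRCm38.p6, from 250 before to 50 after a RefSeq start, on the plus strand (Axin2 at chr11:108920099-108920398, Sp5 at chr2:70474673-70474972, Lef1 at chr3:131110047-131110346). Lef1 had 4 windows in the table, of which the one lying farthest upstream is shown, and it ends before the GENCODE start of the gene given further on. Capitals mark the TCF/LEF core letters CAAAG, or CTTTG for the other strand, and the longer form ATCAAAG, or CTTTGAT, which contains the core.
Axin2: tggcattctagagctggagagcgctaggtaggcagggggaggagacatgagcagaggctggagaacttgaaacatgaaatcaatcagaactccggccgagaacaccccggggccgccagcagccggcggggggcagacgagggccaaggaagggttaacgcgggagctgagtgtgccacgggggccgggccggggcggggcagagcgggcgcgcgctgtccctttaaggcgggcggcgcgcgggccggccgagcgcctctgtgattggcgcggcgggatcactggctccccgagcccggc
Sp5: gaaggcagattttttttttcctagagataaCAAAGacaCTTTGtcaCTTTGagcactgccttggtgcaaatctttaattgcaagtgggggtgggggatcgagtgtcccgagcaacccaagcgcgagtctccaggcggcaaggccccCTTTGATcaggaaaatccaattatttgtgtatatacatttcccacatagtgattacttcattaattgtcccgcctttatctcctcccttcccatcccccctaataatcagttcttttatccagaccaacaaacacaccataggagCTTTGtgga
Lef1: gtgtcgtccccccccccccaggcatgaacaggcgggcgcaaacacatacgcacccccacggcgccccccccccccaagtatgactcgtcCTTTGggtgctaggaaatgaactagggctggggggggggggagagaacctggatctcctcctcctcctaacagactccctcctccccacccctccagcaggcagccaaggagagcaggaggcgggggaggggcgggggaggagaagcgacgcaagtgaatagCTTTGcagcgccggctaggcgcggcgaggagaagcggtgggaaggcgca
The Sp5 window held the core 5 times, 1 of them as the longer form, the Lef1 window held the core 2 times, and the Axin2 window held neither. The longer form was in 3.73% of 32851 promoters and the core in 53.9%, so the core alone is common in windows of this length. Promoters were at hand for 72 of the 107 pathway genes and 5 of the 10 genes described in full. These are letter matches in a short window, and say nothing of sites elsewhere in a gene.

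Before the results, 1 library has to be set apart. Among the astrocytes, the third library held far more of several pathway genes than the other two: Wif1, a secreted Wnt-binding inhibitor, was at 5.97, 0.764 and 628 CPM in astrocyte libraries 1, 2 and 3, and Fzd10 at 0.0818, 0.214 and 47.4 CPM. Wnt4 followed with 0.123, 0.0306 and 10.9 CPM, the third library alone being high. Fzd10 and Wnt4 were picked out after their values were seen, and Wif1 had the highest mean CPM per kb of the antagonists over the 9 libraries (29.3, against 28.7 for Dkk3), a rank it owed to that library.

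Some markers of cell identity moved with that library, and others did not. Of 15 astrocyte markers, 13 exceeded 1 CPM on average in the astrocytes, and they summed to 1170, 1160 and 1860 CPM in libraries 1 to 3. Their most abundant gene in the astrocytes was Apoe on average (264.8 CPM), and over the 9 libraries the gap junction gene Gja1, which SB28 cells also expressed, and Gjb6 had no count in any library. Aqp4, the astrocyte water channel, stood at 5.64, 6.82 and 59.7 CPM in the astrocytes and at or below 0.402 CPM in all 6 SB28 libraries, whereas Apoe (263.8, 260.3 and 270.2 CPM) and Sox9 (181, 173 and 173 CPM) differed little between the astrocyte libraries. The 5 ependymal and choroid plexus markers summed to 9.36, 7.25 and 76.6 CPM, mostly Foxj1, and the 7 endothelial markers to 7.57, 14.4 and 199 CPM, mostly Flt1, with Tie1 at 0 throughout. The 10 oligodendrocyte lineage markers summed to 983, 542 and 612 CPM, led by Olig1, while Sox10 was at or near 0. Of the 10 microglial markers, summing to 84.2, 80.9 and 96.7 CPM, Tmem119 was the most abundant, and it was at 47.3 to 61.1 CPM in SB28 cells. The 10 neuronal markers summed to 55.6, 104 and 95.8 CPM, led by Map2, and the 8 fibroblast markers to 1470, 1570 and 1230 CPM, led by Col1a2, against 637 to 966 CPM in SB28 cells. The part of these markers in the differences below was not tested, and in sorted bulk RNA fewer cells of a type and less RNA per cell cannot be told apart.

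Wnt7b was higher in SB28 cells than in astrocytes, and the antagonist Sfrp1, the receptor Fzd1 and the feedback gene Axin2 were lower. A gene was called where its edgeR adjusted P was below 0.05 and its log2 fold change beyond 1 in either direction. Against astrocytes, mKate2- cells had 2 of the 9 testable genes higher and 5 lower, where 33.9% of the 13356 genes tested were called (11.5% higher, 22.4% lower). In mKate2+ cells 2 were higher and 4 lower, where 35.0% of 13342 were called (12.2% higher, 22.8% lower). Wnt7a did not reach 1 CPM in 2 libraries and was not tested. With no filter on low counts it was called lower in both comparisons (adjusted P = 0.00114 and 0.00878), making 6 and 5 lower. The ranges of SB28 cells and astrocytes were apart for 8 of the 10 genes in each comparison, against 71.1% and 67.1% of all tested genes. Wnt7a is among those 8 but, being untested, not among the genes behind these shares. The comparisons used the same astrocyte libraries, so each is given with its own values. The shares of all tested genes called higher and lower also apply to the counts of each role list below.

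**Figure D1:**
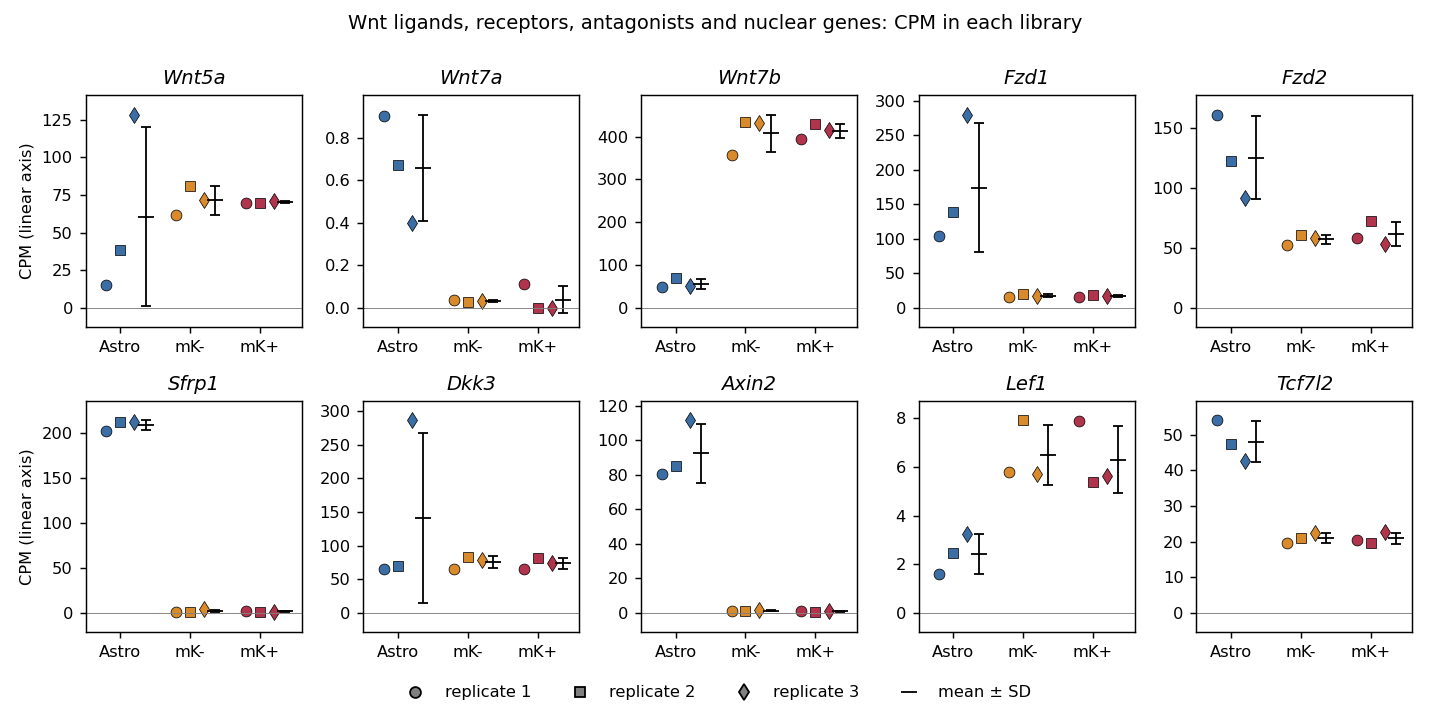
CPM of each gene in every library, on a linear axis of its own, for astrocytes (Astro), mKate2- SB28 (mK-) and mKate2+ SB28 (mK+) cells; symbols mark replicates 1 to 3 and bars the mean ± SD. Wnt7b lies at or above 357 CPM in all SB28 libraries and at or below 70.0 CPM in all astrocyte libraries, and the third astrocyte library is the highest for Wnt5a, Fzd1 and Dkk3.

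Wnt7b (ENSMUSG00000022382, chr15:85535437-85582473, minus strand) had the highest mean CPM per kb of the Wnt ligands over the 9 libraries. It was at 47.4, 70.0 and 49.9 CPM in astrocyte libraries 1 to 3, 357, 434 and 432 CPM in mKate2- cells, and 396, 429 and 415 CPM in mKate2+ cells. Every SB28 library lay above every astrocyte library, and the SB28 populations overlapped. Its log2 fold change against astrocytes was 2.89 ± 0.18 (SE, adjusted P = 1.38e-05) in mKate2- and 2.97 ± 0.18 (adjusted P = 1.80e-05) in mKate2+ cells. As a share of all Wnt ligand CPM per kb, Wnt7b supplied 88.2% ± 0.526 (SD, n = 3) in mKate2- cells and 88.5% ± 0.626 in mKate2+ cells. In the astrocytes it supplied 60.9, 62.8 and 23.5% in libraries 1 to 3, the third being the low one.

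Wnt5a (ENSMUSG00000021994, chr14:28504750-28527448, plus strand), a ligand that mostly signals without β-catenin, was at 15.1, 38.5 and 128 CPM in the astrocytes, 61.6, 81.2 and 71.3 CPM in mKate2- and 69.8, 69.7 and 70.9 CPM in mKate2+ cells. The astrocyte libraries spanned the whole SB28 range, the first and the second lying below it and the third above. The log2 fold changes of 0.26 ± 0.63 in mKate2- and 0.29 ± 0.63 in mKate2+ cells did not pass (adjusted P = 0.735 and 0.706). Without the third astrocyte library they became 1.42 (adjusted P = 0.00670) and 1.44 (adjusted P = 0.0102), past the thresholds, and without the first they were -0.20 and -0.17.

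Wnt7a (ENSMUSG00000030093, chr6:91363981-91411363, minus strand), the close relative of Wnt7b, was scarce everywhere. The astrocytes had 0.900, 0.673 and 0.398 CPM, the mKate2- cells 0.0368, 0.0279 and 0.0335 CPM, and the mKate2+ cells 0.111, 0 and 0 CPM. These are 58 counts in the 3 astrocyte libraries against 3 and 4 counts in the SB28 groups. Astrocyte levels were higher by a ratio of 19.5 over mKate2- cells (exact 95% counting interval 6.34 to 97.1) and 17.2 over mKate2+ cells (6.37 to 65.3), intervals that cover counting error only. Per kb of exon, mKate2- cells held 83.3 CPM of Wnt7b and 0.0103 CPM of Wnt7a.

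Of the 19 Wnt ligand genes, 4 passed the filter on low counts. Besides Wnt7b and Wnt5a these were Wnt9a, lower in SB28 cells with log2 fold changes of -1.67 ± 0.28 and -1.56 ± 0.30 (adjusted P = 0.00142 and 0.00290), and Wnt5b, at -1.84 and -1.86, which did not pass (adjusted P = 0.0582 and 0.0642). Those Wnt5b values rested on the third astrocyte library, at 26.9 CPM against 4.05 and 3.98 in the others. Without it they were -0.32 and -0.35, and without the first or the second they were -2.25 to -2.28, called lower. Wnt3a and Wnt8a had no count in any library. Summed over the ligands, the level was 27.3 ± 14.3 CPM per kb (SD, n = 3) in astrocytes, 94.4 ± 10.2 in mKate2- and 95.3 ± 3.31 in mKate2+ cells, and the third astrocyte library, at 43.4, was the closest to the SB28 range. Both genes needed to release a Wnt were lower in SB28 cells: Porcn, which attaches the lipid, at log2 fold changes of -1.21 ± 0.23 and -1.27 ± 0.25, and Wls, which carries the ligand to the surface, at -1.10 ± 0.23 and -1.07 ± 0.24 (largest adjusted P = 0.00580). Without the third astrocyte library the Wls call was lost in each comparison (-0.78 and -0.76), as it was with the gene length trend removed and the median of all genes kept (-0.997 and -0.90).

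**Figure D2:**
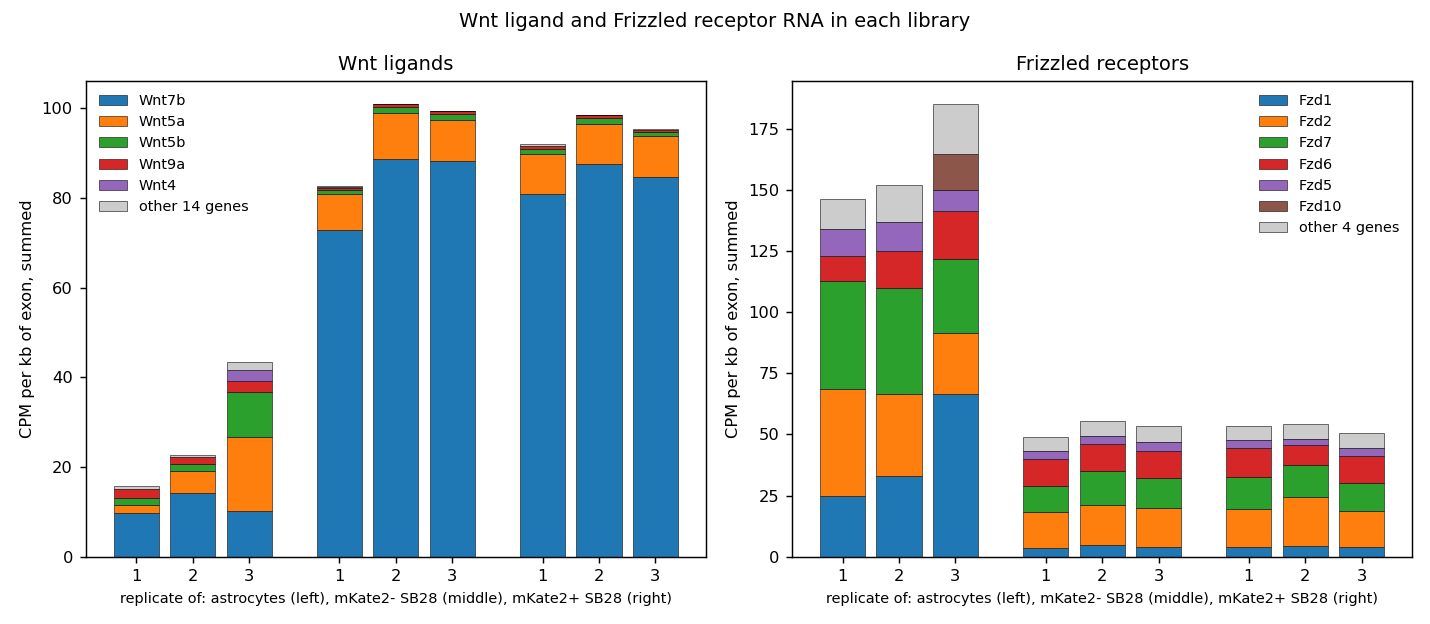
CPM per kb of exon summed over the 19 Wnt ligand genes (left) and the 10 Frizzled genes (right) in each library, stacked by gene. Wnt7b fills 88.2 and 88.5% of the ligand bars in mKate2- and mKate2+ SB28 cells on average, while the Frizzled bars are taller in all 3 astrocyte libraries (147, 152 and 185) than in any SB28 library.

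The receptor gene Fzd1 (ENSMUSG00000044674, chr5:4753839-4758035, minus strand) was at 104, 139 and 279.6 CPM in the astrocytes, 15.7, 20.2 and 16.9 CPM in mKate2- and 16.1, 19.0 and 16.8 CPM in mKate2+ cells. The lowest astrocyte library was far above the highest SB28 library. Against astrocytes the log2 fold changes were -3.28 ± 0.36 (adjusted P = 0.000161) and -3.24 ± 0.36 (adjusted P = 0.000240).

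Fzd2 (ENSMUSG00000050288, chr11:102604396-102608058, plus strand) was at 161, 122 and 91.5 CPM in the astrocytes, 52.6, 60.3 and 57.7 CPM in mKate2- and 58.1, 72.3 and 53.4 CPM in mKate2+ cells. The groups did not overlap, but the gap to the third astrocyte library was small. The difference passed in mKate2- cells (-1.13 ± 0.21, adjusted P = 0.00218) and fell short of the fold threshold in mKate2+ cells (-0.95 ± 0.24, adjusted P = 0.0104). That contrast between the populations hung on single libraries: without the first astrocyte library the mKate2- value was -0.89, not past the threshold, and without the third astrocyte or the second mKate2+ library the mKate2+ value was -1.16 or -1.12, past it. The direct comparison of the populations gave 0.17 ± 0.15 with a 95% interval from -0.17 to 0.51.

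Of the 10 Frizzled genes, 9 were tested, and 6 were lower in mKate2- and 5 in mKate2+ cells, none higher. Fzd5, Fzd7, Fzd8 and Fzd9 were lower in both, from -1.26 ± 0.16 for Fzd8 to -3.36 ± 0.43 for Fzd9 in mKate2- cells. All 9 log2 fold changes were below 0 in both comparisons, also with the gene length trend removed and the median kept, but 7 of 9 where that removal was left to raise the median of all genes. The summed Frizzled level was 161 ± 21.0 CPM per kb (SD, n = 3) in astrocytes, 52.7 ± 3.40 in mKate2- and 52.9 ± 2.00 in mKate2+ cells.

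Fzd1 made up 16.9, 21.8 and 35.9% of the Frizzled CPM per kb in astrocyte libraries 1 to 3, and 7.93% ± 0.620 (SD, n = 3) and 7.79% ± 0.578 in the mKate2- and mKate2+ cells, below every astrocyte library. Fzd2 had the highest mean CPM per kb of the family over the 9 libraries, although in astrocytes Fzd1 and Fzd7 were above it (41.5 and 39.3 against 34.1). It supplied 29.4% ± 0.138 in mKate2- and 31.5% ± 4.10 in mKate2+ cells, and 22.0 and 13.5% in astrocyte libraries 2 and 3, while library 1 lay within the SB28 range of 28.8 to 36.2%.

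Co-receptors split in their direction. Reck, the membrane protein that lets cells respond to WNT7A and WNT7B, was at 47.7, 65.6 and 63.7 CPM in the astrocytes, 1.40, 1.14 and 1.78 CPM in mKate2- and 1.42, 0.993 and 1.20 CPM in mKate2+ cells, so the groups were far apart. Its log2 fold change was -5.34 ± 0.22 in mKate2- and -5.54 ± 0.21 in mKate2+ cells (adjusted P = 4.48e-06 and 5.25e-06). Its partner Adgra2, the most abundant co-receptor gene per kb over the 9 libraries but level with Ptk7 in astrocytes (47.9 and 48.6 CPM per kb), stood at 211, 303 and 317 CPM in the astrocytes, 476, 583 and 578 CPM in mKate2- and 526, 491 and 578 CPM in mKate2+ cells. Adgra2 was 1.02 ± 0.17 higher in mKate2+ cells, past the threshold, and 0.998 ± 0.17 in mKate2- cells, just short of it. Ptk7 and Ror1, co-receptors of the β-catenin-independent branch, were both lower, Ptk7 at -1.68 ± 0.13 and -1.61 ± 0.12. In total 3 of the 8 co-receptor genes were lower in each comparison, and none (mKate2-) and 1 (mKate2+) higher. Of the lower ones, Ror1 passed the filter through the astrocytes alone. Adgra2 sat at the threshold and crossed it either way, at 0.85 in mKate2+ cells without the first astrocyte library and at 1.04 and 1.09 in mKate2- cells without the second or the third. Without the third, Lrp5 passed as well, at 1.00 and 1.08, so that 2 were higher in each comparison. With the gene length trend removed and the median kept, Adgra2 passed in mKate2- (1.02) and Lrp5 in mKate2+ cells (1.03).

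Sfrp1 (ENSMUSG00000031548, chr8:23411502-23449632, plus strand), a secreted decoy with a Frizzled-like binding domain, was the most even of the 10 genes among astrocytes. It was at 202, 212 and 213 CPM there, 1.40, 1.45 and 3.82 CPM in mKate2- and 1.75, 1.48 and 1.38 CPM in mKate2+ cells. All 6 SB28 libraries were low, the third mKate2- library being the highest of them. The log2 fold changes were -6.54 ± 0.39 (adjusted P = 1.22e-05) and -7.01 ± 0.15 (adjusted P = 2.09e-06). Without the third mKate2- library the mKate2- value was -7.17. The 15 astrocyte markers summed to 389, 469 and 427 CPM in mKate2- libraries 1 to 3, the third lying between the others, a sum in which Gja1 is the most abundant gene. Single markers went both ways there: Slc1a3 was at 1.10, 0.947 and 2.38 CPM and Aldoc at 2.61, 3.07 and 1.48 CPM. The oligodendrocyte lineage genes Olig1 (1.95, 1.20 and 6.43 CPM) and Olig2 (1.73, 0.947 and 2.95 CPM), both far higher in astrocytes, were highest in the third library. These 4 genes were picked out after their values were seen. All 10 oligodendrocyte lineage markers summed to 39.1, 45.7 and 48.6 CPM in mKate2- libraries 1 to 3. Without Olig1 and Olig2, the rest of that list was highest in the second library. The part of astrocyte transcripts in the Sfrp1 value was not tested.

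Dkk3 (ENSMUSG00000030772, chr7:112116017-112159057, minus strand), a divergent Dickkopf protein, did not pass in either comparison. The astrocytes had 65.6, 69.3 and 287 CPM, the mKate2- cells 65.6, 83.3 and 77.8 CPM, and the mKate2+ cells 65.2, 81.1 and 73.7 CPM. The first and second astrocyte libraries lay within or beside the SB28 range and the third was far above it. The log2 fold changes of -0.87 ± 0.53 and -0.85 ± 0.54 (adjusted P = 0.187 and 0.206) turned to 0.17 in both comparisons without that library.

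Among all 17 secreted and surface antagonists, 11 were tested, and 7 were lower and 1 higher in each comparison. Only 7 of the 17 passed the filter between the SB28 populations, so some of the 11 passed through the astrocytes alone. Without the third astrocyte library, 8 were tested and 3 were lower in each, 1 being higher. Notum, an enzyme that strips the lipid from Wnts, was lower at -3.13 ± 0.23 and -3.17 ± 0.19 (adjusted P = 2.66e-05 and 1.86e-05). Apcdd1, a membrane inhibitor of Wnt signalling, was the exception, higher by 2.04 ± 0.26 and 2.05 ± 0.26 (adjusted P = 0.000310 and 0.000437). It was at 25.9, 33.8 and 55.4 CPM in the astrocytes and between 139 and 173 CPM in SB28 cells. Sfrp4 and Frzb, 2 further soluble decoys, had 12 or fewer counts in each SB28 group, and Dkk1, Dkk4, Sost and Kremen2 had none in any library. Wif1 was called lower, but without the third astrocyte library it was -1.82 and -1.72 and not called (adjusted P = 0.0590 and 0.280), and DESeq2 set no adjusted P for it.

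**Figure D3:**
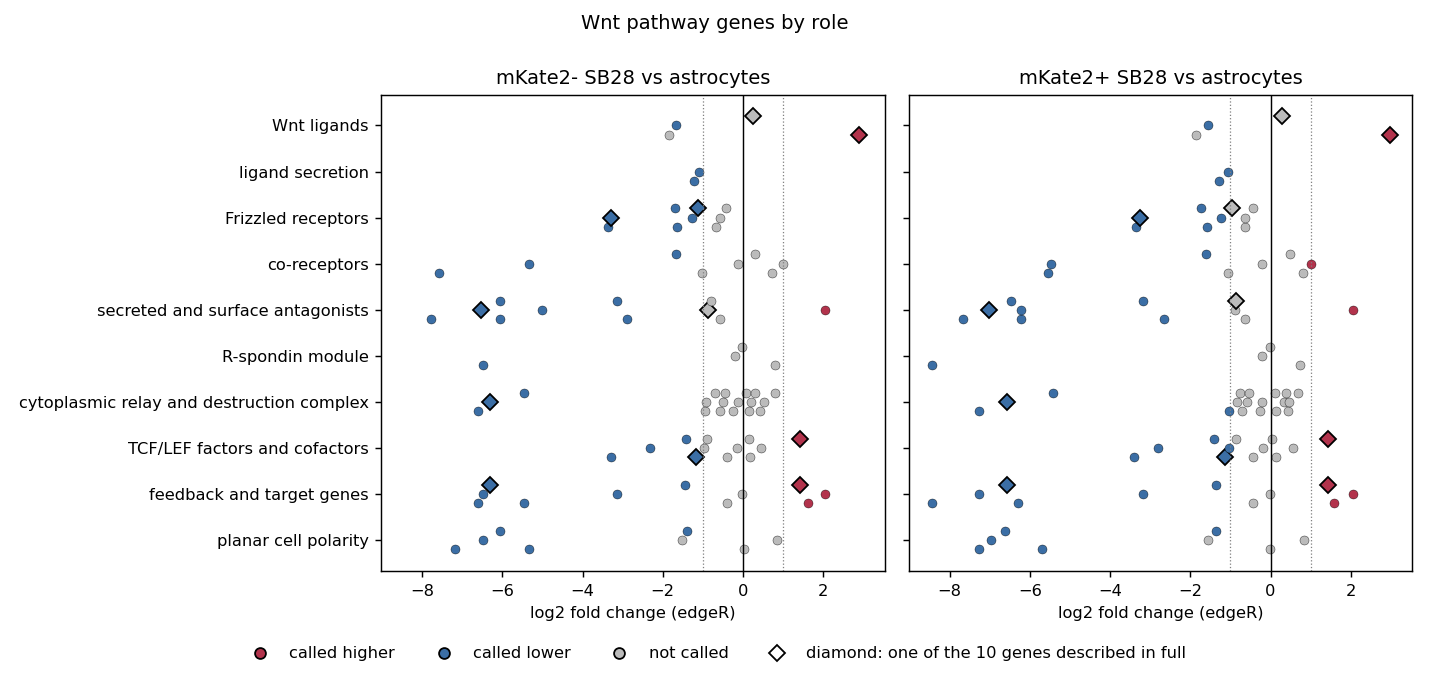
edgeR log2 fold change of each tested Wnt pathway gene in mKate2- (left) and mKate2+ (right) SB28 cells against astrocytes, in rows by role; red is called higher, blue called lower, grey not called, diamonds are the genes described in full, and dotted lines mark -1 and 1. A gene with 2 roles appears in both rows; called genes lie mostly on the low side, with Wnt7b, Apcdd1, Lef1 and Myc on the high side in both panels.

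Axin2 (ENSMUSG00000000142, chr11:108920349-108950783, plus strand), a scaffold of the destruction complex that β-catenin itself induces, was at 80.3, 84.8 and 112 CPM in the astrocytes, 1.07, 0.864 and 1.51 CPM in mKate2- and 0.943, 0.509 and 1.32 CPM in mKate2+ cells. No SB28 library came near the astrocytes. In edgeR the log2 fold changes were -6.32 ± 0.25 (adjusted P = 4.48e-06) and -6.58 ± 0.33 (adjusted P = 9.54e-06).

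Lef1 (ENSMUSG00000027985, chr3:131110471-131224356, plus strand) was low in all cells but higher in the tumor cells. It was at 1.60, 2.45 and 3.25 CPM in the astrocytes, 5.81, 7.94 and 5.73 CPM in mKate2- and 7.88, 5.40 and 5.62 CPM in mKate2+ cells, with no overlap between tumor cells and astrocytes. The log2 fold changes were 1.43 ± 0.31 (adjusted P = 0.00484) and 1.44 ± 0.32 (adjusted P = 0.00630).

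Tcf7l2 (ENSMUSG00000024985, chr19:55741820-55933654, plus strand), the other DNA-binding partner of β-catenin in the set, went the opposite way. It was at 54.1, 47.3 and 42.6 CPM in the astrocytes, 19.6, 20.9 and 22.4 CPM in mKate2- and 20.3, 19.7 and 22.7 CPM in mKate2+ cells, again without overlap. The log2 fold changes of -1.18 ± 0.14 (adjusted P = 0.000262) and -1.13 ± 0.15 (adjusted P = 0.000512) lay close to the fold threshold. With the gene length trend removed and the median of all genes kept they were -1.12 and -0.998, the last no longer past the threshold.

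The feedback and target genes did not move as one. Of 13, 11 were tested, and 6 were lower and 3 higher in each comparison. Of the 11, Nkd1, Lgr5 and Sp5 passed the filter through the astrocytes alone. Lower were Axin2, Notum, Sp5, Lgr5, Nkd1 and Ccnd1, and higher were Lef1, Apcdd1 and Myc. Nkd1, an inhibitor of the Dishevelled relay, and the receptor gene Lgr5 were nearly silent in SB28 cells, with 3 or fewer counts in each SB28 group against 343 and 116 in the astrocytes. Sp5 followed with 259 counts in the astrocytes against 5 and 3, and Sp5 and Lgr5 were named in this list after their values were seen. Sp5 without the second or the third astrocyte library, and Lgr5 without the first or the second, fell below the filter on low counts. Myc, a growth-driving transcription factor, was higher by 1.62 ± 0.17 and 1.57 ± 0.18 (adjusted P = 0.000128 and 0.000256). Ccnd1, the cyclin of cell cycle entry and the most abundant gene of the list per kb, was lower at -1.45 ± 0.13 and -1.36 ± 0.13 (adjusted P = 6.44e-05 and 0.000143). The 8 proliferation markers summed to 602, 630 and 818 CPM in the astrocytes and 1590 to 2080 CPM in SB28 cells, and their part in the Myc and Ccnd1 values was not tested.

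**Figure D4:**
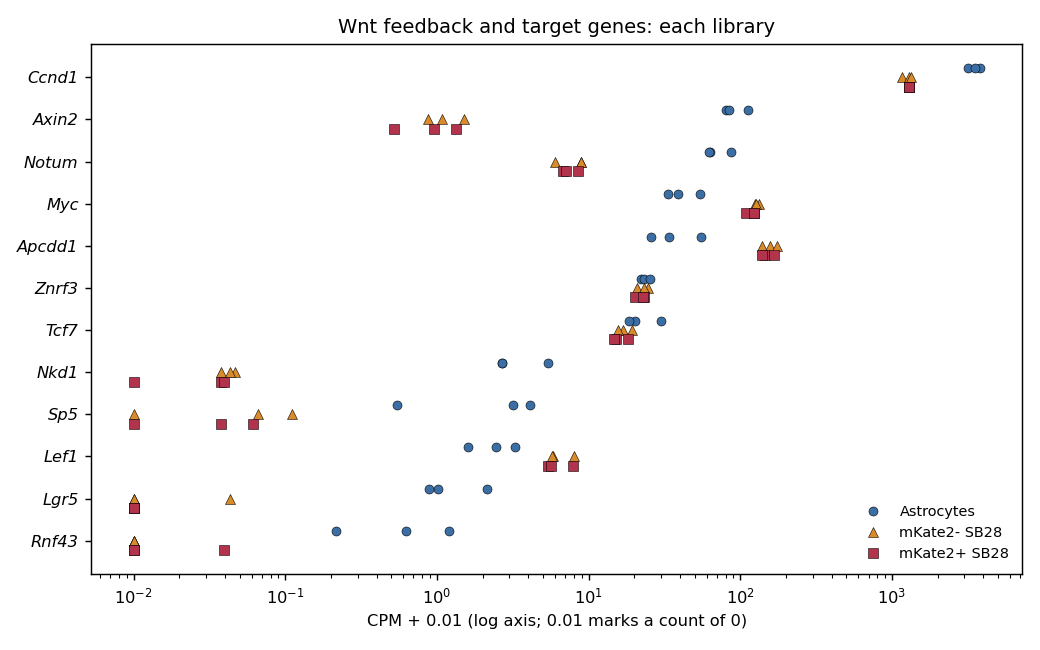
CPM + 0.01 on a log axis for the 12 of 13 feedback and target genes with a count in the astrocytes; each symbol is 1 library. Axin2, Notum, Nkd1 and Ccnd1 are higher in all astrocyte libraries, whereas Myc, Apcdd1 and Lef1 are higher in all SB28 libraries and Znrf3 overlaps.

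Of the 18 cytoplasmic relay and destruction complex genes, all tested, 3 were lower in mKate2- cells (Axin2, Nkd1 and Nkd2) and 4 in mKate2+ cells, with none higher. Over all genes tested, 22.4 and 22.8% were called lower, and these counts are not above that share. Nkd1 and Nkd2 passed the filter through the astrocytes alone. The median log2 fold changes of the list were -0.34 and -0.40. Without the first astrocyte library 5 were lower in mKate2- cells, and with the gene length trend removed and the median kept 3 were lower in mKate2+ cells, Dvl3 (from -1.04 to -0.97) dropping out. The medians were then -0.19 and -0.28, and without keeping the median of all genes they turned to 0.25 and 0.17, with 2 genes, Amer1 and Tnks2, higher in each. Ctnnb1, which encodes β-catenin and was the most abundant of them per kb, was at 863, 916 and 1002 CPM in the astrocytes and 465 to 585 CPM in SB28 cells, a difference of -0.70 ± 0.11 and -0.71 ± 0.13 that missed the fold threshold. Of 12 TCF/LEF factors and cofactors, 4 and 5 were lower, and 1, Lef1, was higher in each. Pygo1, a β-catenin cofactor, was lower at -3.29 ± 0.32 and -3.41 ± 0.33, while its relative Pygo2, the most abundant gene of that list per kb, differed by 0.44 ± 0.13 and 0.55 ± 0.15 and was not called. The corepressor genes Tle2 (-2.32 ± 0.21 and -2.80 ± 0.25) and Tle3 (-1.41 ± 0.15 and -1.42 ± 0.14) were lower. With the gene length trend removed and the median of all genes kept, 4 of the list were lower in mKate2- and 3 in mKate2+ cells, where Tcf7l2 and Tle4 (from -1.03 to -0.98) no longer passed.

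Of the 9 planar cell polarity genes, which orient cells within a sheet, 8 were tested and 5 were lower in each comparison, none higher. Only 4 of the 9 passed the filter between the SB28 populations, so some of the 8 passed through the astrocytes alone. Celsr2 was at 96.3, 102 and 248 CPM in the astrocytes and at or below 1.48 CPM in SB28 cells. Daam2 stood at -6.07 ± 0.40 and -6.63 ± 0.40 (log2 fold change) in mKate2- and mKate2+ cells, and Prickle2 at -5.34 ± 0.41 and -5.69 ± 0.48. Vangl2 was also lower (-1.41 ± 0.11 and -1.37 ± 0.12). Vangl1, the most abundant of the list per kb over the 9 libraries, was below Celsr2, Vangl2, Daam1 and Daam2 in astrocytes. It differed by 0.84 ± 0.11 and 0.83 ± 0.12 without reaching the fold threshold. In the R-spondin module, which governs receptor levels at the surface, 1 of the 4 tested genes, Lgr5, was lower, close to the 22.4 and 22.8% of all tested genes. Lgr5 passed the filter through the astrocytes alone, and without the first or the second astrocyte library it was not tested and none was lower. Lgr6, the most abundant per kb over the 9 libraries, differed by 0.80 ± 0.19 and 0.74 ± 0.18 and was not called.

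Over the whole list, 79 of the 107 genes were tested in each comparison. Only 66 of the 107 passed the same filter between the SB28 populations. Genes that passed through the astrocytes alone were high there by selection. Their lower calls and their weight in the medians below are therefore partly set by the filter. The shares over all genes rest on the same filter. In mKate2- cells 4 were higher and 34 lower (median log2 fold change -0.92, against -0.038 over all genes), and in mKate2+ cells 5 were higher and 35 lower (median -0.88, against -0.018 over all genes). Of all genes tested, 11.5% were called higher and 22.4% lower in mKate2- cells, and 12.2% and 22.8% in mKate2+ cells. Without the third astrocyte library the pathway counts were 7 higher and 28 lower in both, with medians of -0.59 and -0.63. With the trend of fold change with gene length removed and the median of all genes kept, the pathway list held 5 higher and 33 lower calls for mKate2- cells, and 6 and 31 for mKate2+ cells. Over all genes tested, the share of calls that were higher was then 36.1 and 36.5%, against 33.8 and 35.0% without that step. Removing the trend without keeping the median raised the median of all genes by 0.471 and 0.480, which took the share over all genes to 59.7 and 61.3% and the pathway genes to 10 higher and 26 lower in both. The calls of Fzd8, Porcn, Tle3, Ccnd1 and Vangl2 in both comparisons, and of Fzd2 and Tcf7l2 in mKate2- cells, were lost there and held with the median kept.

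The question the sort poses is whether SB28 cells that took up astrocyte mitochondria differ in these genes from those that did not. No difference passed for any of the 9 tested genes at a fold above 1.5, an unadjusted P below 0.05 and a mean normalized count above 50, where 0.363% of the 11854 genes tested passed (23 higher, 20 lower). The ranges of the populations overlapped for all 10 genes, while they were apart for 8.83% of all tested genes. In the wider list they were apart for Dvl1, Apc, Tle1 and Myc, and for Sfrp2 and Sfrp5, which fell below the filter on low counts. Each of these was lower in mKate2+ cells, in CPM before TMM scaling. The TMM factors were 0.997, 0.920 and 0.988 in mKate2+ and 1.015, 1.007 and 1.015 in mKate2- libraries 1 to 3. Scaling by them raises every mKate2+ value and lowers every mKate2- value, so the shared direction is not read as a difference. None of the 66 tested pathway genes passed either, with a median log2 fold change of -0.017. edgeR and DESeq2 each called 0 of 11854 genes at an adjusted P below 0.05, and edgeR gave an unadjusted P below 0.05 for 241 genes (2.03%). Of the pathway genes, Apc alone was among those 241 (-0.40 ± 0.16, adjusted P = 0.923). Apc was chosen after its values were seen, and the second mKate2+ library, at 36.3 CPM against 60.4 and 60.9 in the others, was the low one. That library stood apart from its group over all genes: its counts gave a chi-square of 134 and 121 (divided by the degrees of freedom) against the other two, and those gave 15.8 against each other. Without it 6 genes were higher and 16 lower, and none of the 10 passed. It also had the lowest sum of the 8 proliferation markers in SB28 cells, 1590 against 1860 to 2080 CPM, and among those markers Mki67, chosen after its values were seen, passed as lower (-0.70 ± 0.27, adjusted P = 0.923), but at -0.41 not without that library. Without the third mKate2+ library the corepressor gene Tle2 passed as lower (-0.71, adjusted P = 0.771).

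**Figure D5:**
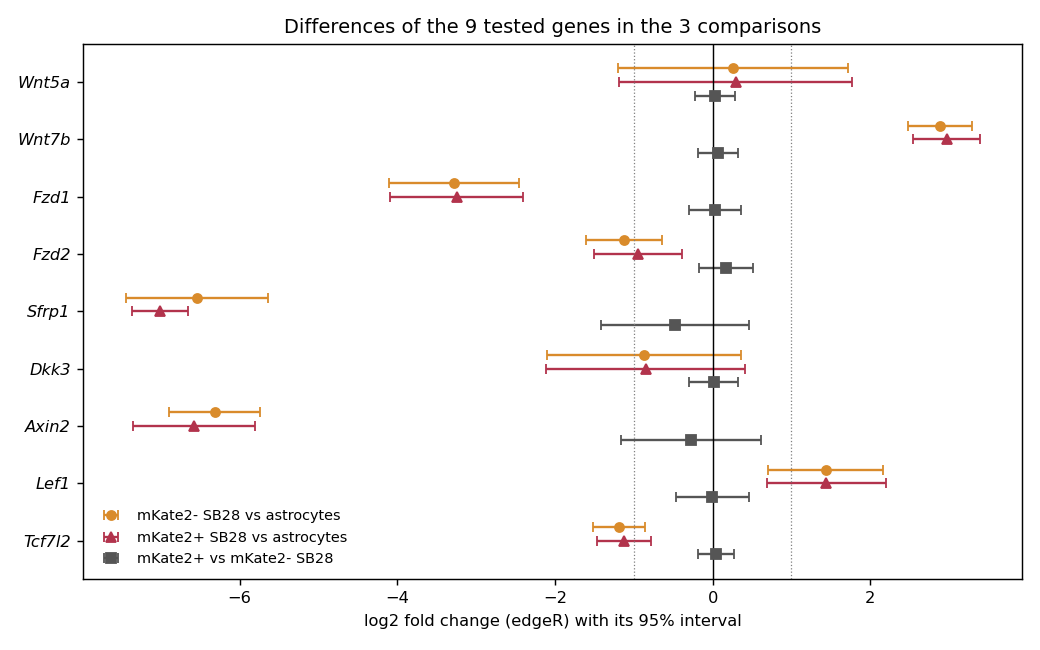
edgeR log2 fold changes (points) with 95% intervals (bars) for the 9 tested genes in mKate2- SB28 against astrocytes, mKate2+ SB28 against astrocytes, and mKate2+ against mKate2- SB28; dotted lines mark -1 and 1. The grey intervals of the last comparison all contain 0, and Wnt5a and Dkk3 also have intervals that cross 0 against astrocytes.

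The mKate2+ minus mKate2- difference was 0.07 for Wnt7b (95% interval -0.18 to 0.33), 0.03 for Wnt5a (-0.23 to 0.28), 0.03 for Fzd1 (-0.30 to 0.36), 0.01 for Dkk3 (-0.30 to 0.33) and 0.05 for Tcf7l2 (-0.18 to 0.28), all on the log2 scale. The intervals of those 5 genes and of Lef1 (-0.47 to 0.46) and Fzd2 lay within the 1.5-fold threshold, or log2 of 0.58, on both sides. For Sfrp1 (-0.48, from -1.42 to 0.47) and Axin2 (-0.27, from -1.16 to 0.61) the intervals contain a 1.5-fold fall, and for Axin2 a 1.5-fold rise as well.

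Ordered by CPM per kb, the 10 genes ranked alike in the SB28 populations and differently in astrocytes. In mKate2- cells the order was Wnt7b (83.3 ± 8.94), Dkk3 (22.5 ± 2.70), Fzd2 (15.5 ± 1.07), Wnt5a (9.12 ± 1.26), Fzd1 (4.19 ± 0.553), Tcf7l2 (2.39 ± 0.163), Lef1 (0.739 ± 0.143), Sfrp1 (0.508 ± 0.317), Axin2 (0.208 ± 0.0598) and Wnt7a (0.0103 ± 0.00142), as mean ± SD of 3 libraries. Neighbours in that order were apart in range except Lef1 and Sfrp1. The mKate2+ cells had the same order, and there only Dkk3 and Fzd2 overlapped. In astrocytes Sfrp1 (47.8 ± 1.29), Dkk3 (41.8 ± 37.7), Fzd1 (41.5 ± 22.2) and Fzd2 (34.1 ± 9.49) led, each overlapping the next, followed by Axin2 (16.8 ± 3.10) and Wnt7b (11.4 ± 2.53). Wnt7b, at rank 6 there, held rank 1 in SB28 cells.

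Patterns most like each gene's were sought among the 13450 genes above 1 CPM in 2 of the 9 libraries, by Pearson r of log2(CPM + 0.5). The 9 libraries fall into tumor cells and astrocytes, so a high r mainly restates that split: 2135 genes exceeded 0.95 with Sfrp1 and 2212 with Axin2. The nearest were S1pr3 for Sfrp1 (0.999), Gpr162 for Axin2 (0.999), Foxk2 for Wnt7b (0.999), Cables1 for Fzd1 (0.998), Dbn1 for Tcf7l2 (0.998), Gpr137 for Fzd2 (0.996) and Tulp3 for Lef1 (0.993). Dkk3 and Wnt5a, whose levels were set apart by the third astrocyte library, had 7 and 11 genes above 0.95, led by Dmp1 (0.992) and Gcnt1 (0.984).

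Exons of 4 of the genes overlap an annotated gene on the opposite strand, and the strand setting of the counting is not given in the sources used here. The overlaps span 1208 bases of Lef1 (Gm43352), 358 of Wnt5a (Gm2670), 324 of Wnt7b (AU022754) and 209 of Axin2 (Gm11670). If strand was not used in the counting, reads in those stretches could come from either gene. The partner genes were at 0.440 CPM or less on average in every group, below the level of the gene they overlap. Those levels leave out any reads of the shared stretches that were not counted.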

How the data were processed

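The deposited table holds raw read counts per Ensembl gene in 9 libraries. Per the labels and the submitters' processing notes, the authors used Trimmomatic 0.36, STAR 2.5.2b and featureCounts of Subread 1.5.2 on GRCm38; the annotation release and strand setting are not given in the sources used here. Symbols, positions and exon lengths came from GENCODE vM21 (49056 of 49315 IDs matched), promoters from RefSeq. The sources disagree on which cells carried the sorting dye, so groups were taken from the sample titles.

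Each comparison used its own 6 libraries, genes above 1 CPM in at least 2 of them, TMM normalization, the edgeR 4.0.16 two-sided quasi-likelihood test and Benjamini-Hochberg adjustment over all genes tested (R 4.3.3), checked on simulated counts. SE is the fold change over the root of F, and 95% intervals use the moderated degrees of freedom. DESeq2 1.42.0, upper-quartile scaling, no filter, all 9 libraries in one fit, a replicate block, removal of the gene length trend (loess, span 0.3) and leaving out each library were alternatives, and removal of that trend with the median kept was added after seeing the data. Replicates were distinct libraries (chi-square per degree of freedom between replicates from 15.8 to 134).

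The 10 genes, role lists and marker lists were chosen with earlier results of these data known. Beyond the 10, genes were named by rule: per role list, up to 4 called in both astrocyte comparisons with the smallest adjusted P in mKate2- cells, every pathway gene called between the populations, the gene with the highest CPM per kb, and the nearest pattern of each gene. Wnt5b, Lrp5, Dvl1, Dvl3, Tle1, Tle4, Amer1, Tnks2, Znrf3, Sfrp2, Sfrp5, Daam1 and the single marker genes were named after their values were seen.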

Additional observations from a re-analysis of the deposited data

How the results depend on the processing

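Between mKate2+ and mKate2- cells no alternative called any of the 10 genes, and the small differences of 8 of the 9 tested genes changed sign under some of them. That of Axin2 stayed below 0, at -0.61 to -0.0096 when each library was left out. With the gene length trend removed the log2 difference of Dkk3 was -0.016, and -0.028 with the median kept. That of Lef1 (-0.0023) was 0.068 and 0.0575 under those settings, 0.0056 with no filter and 0.0043 with all 9 libraries in one fit. Leaving out each library in turn gave -0.71 to 0.15 for Sfrp1, -0.12 to 0.11 for Dkk3, -0.065 to 0.13 for Wnt5a, -0.0090 to 0.13 for Wnt7b, -0.094 to 0.15 for Fzd1, -0.026 to 0.26 for Fzd2, -0.17 to 0.17 for Lef1 and -0.0074 to 0.090 for Tcf7l2. Pathway genes lower then numbered 0 to 1, the 1 being Tle2 without the third mKate2+ library. Over all genes the split of 23 higher and 20 lower was unstable. It was 62 and 21 by DESeq2, 224 and 35 with no filter, 44 and 13 with all 9 libraries, 310 and 70 without the first mKate2+ library, 233 and 36 without the third, and 6 and 16 without the second. Of the mKate2- libraries, leaving out the second gave 10 and 28, and leaving out the first gave 15 and 21.

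Against astrocytes, Sfrp1, Wnt7b, Fzd1, Axin2 and Lef1 kept direction and call under every alternative run. Leaving out each library gave -1.22 to 0.17 (mKate2-) and -1.20 to 0.17 (mKate2+) for Dkk3, and -0.20 to 1.42 and -0.17 to 1.44 for Wnt5a. Pathway genes higher ranged from 4 to 7 in both. With the gene length trend removed, 3 of the 10 genes were lower in mKate2- cells and 10 pathway genes were higher in each comparison. That setting raised the median of all genes by 0.471 and 0.480, and with the median kept 5 of the 10 were lower in mKate2- cells and 5 and 6 pathway genes higher. Upper-quartile scaling took Fzd2 past the threshold in mKate2+ cells (-1.05). In TMM-normalized CPM the mean of Wnt5a in mKate2+ cells was 72.5 in place of 70.2.

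Replicate numbers were not shown to pair the libraries: deviations of same-numbered libraries correlated at -0.147 to 0.251, with 3 of 9 pairs above 0.1. A replicate block called the same number of the 10 genes (2 higher and 5 lower in mKate2-, 2 and 4 in mKate2+ cells, 0 between the populations), and 5 higher and 33 lower, 5 and 34, and 0 of the pathway genes. Over all genes it moved the split between the populations to 13 higher and 33 lower.

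With 3 libraries a group from 1 line, fold changes near 1 depend on single libraries, and genes with a few counts allow bounds only.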
